A study of Camelus dromedarius with 10 samples.

Results

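The calcium/calmodulin-dependent protein kinases (CaMKs) and the kinases that activate them (CaMKKs) were examined in RNAseq libraries from the supraoptic nucleus (SON) of the dromedary camel, the hypothalamic nucleus whose magnocellular neurones (MCNs) make vasopressin and oxytocin. 10 genes of the family were listed by name, and 9 of them could be paired with an Ensembl gene ID among the 22444 IDs of the count table. These 9 were CAMK2A, CAMK2B and CAMK2G (CaMKII), CAMK1, CAMK1D and CAMK1G (CaMKI), CAMK4 (CaMKIV), and CAMKK1 and CAMKK2. CAMK2D was paired with no ID and is not analysed here. All 9 passed the filter on low counts and were among the 14432 genes tested, so none of the paired genes was lost.

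The animals were male dromedary camels aged 4 to 5 years. The 5 control camels had food and water throughout, and the 5 camels of the water deprivation (WD) group had food but no water for 20 days. Each library came from the SON of 1 side of 1 animal, taken from the rostral part of the nucleus. Libraries are named here by group and animal number, CON2, CON3, CON4, CON5 and CON13 for the controls and WD6, WD7, WD8, WD9 and WD15 for the WD camels.

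CaMKs are serine/threonine kinases that are switched on when calcium-loaded calmodulin binds to them. CaMKII is a large holoenzyme assembled from subunits of several genes, and its alpha and beta subunits are abundant in neurones, where it is known for its part in synaptic plasticity, while gamma and delta subunits are found widely outside the brain. CaMKI and CaMKIV become fully active only after a CaMKK has phosphorylated them, and CaMKIV in the nucleus and CaMKI in the cytoplasm are the best known targets of this cascade. CaMKK2 also phosphorylates AMP-activated protein kinase (AMPK), the energy sensor of the cell.

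CAMK2A was the only member for which the study designed primers for qRT-PCR, and the pair is shown because CAMK2A is described first. The primers were not aligned here to the gene that was counted. The primers were 20 bases each, with a GC content of 60% for the forward and 55% for the reverse primer, and no qRT-PCR value is used here, so the pair lends no support to the counts.
CAMK2A forward: cctactggttggctatcccc
CAMK2A reverse: ggtgtcccattctggtgatg

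Total counts per library ranged from 1665098 to 8126641, but the share of just 5 dominant gene IDs was 27.7% in one library and as much as 76.1% in another. Counts outside these 5 IDs ranged from 397495 in CON13 to 5872137 in WD9, and the library with the next fewest was WD6 with 1106575. Levels below are CPM (counts scaled to a fixed library size) after trimmed mean of M values (TMM) normalization, on which 1 read pair was worth 1.20 CPM in CON13 and 0.0864 CPM in WD9. The lowest count of every member was in CON13, from 4 for CAMK4 to 107 for CAMK2B. In bulk tissue, fewer cells of a type and less RNA per cell cannot be told apart.

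None of the 9 members passed the threshold of 0.05 on the adjusted p of the quasi-likelihood test of edgeR, adjusted by the Benjamini-Hochberg method, where 0.499% of all tested genes did. By DESeq2's Wald test 1 member passed, CAMK2A, where 1.27% of genes did. At an unadjusted edgeR p under 0.05 there were 4 members, all 4 with a lower mean in WD, namely CAMK2A, CAMK2B, CAMK1D and CAMKK1, and 9.31% of all tested genes met that limit in either direction and 4.41% in the lower direction. The log2 fold change was below 0 for 7 of the 9 members and for 48.1% of all tested genes. The median log2 fold change was -0.51 over the members and 0.02 over all tested genes. The control and WD libraries did not overlap for 1 member, CAMK2A, and for 2.62% of all tested genes in either direction, or 1.27% in the lower direction.

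**Figure D1:**
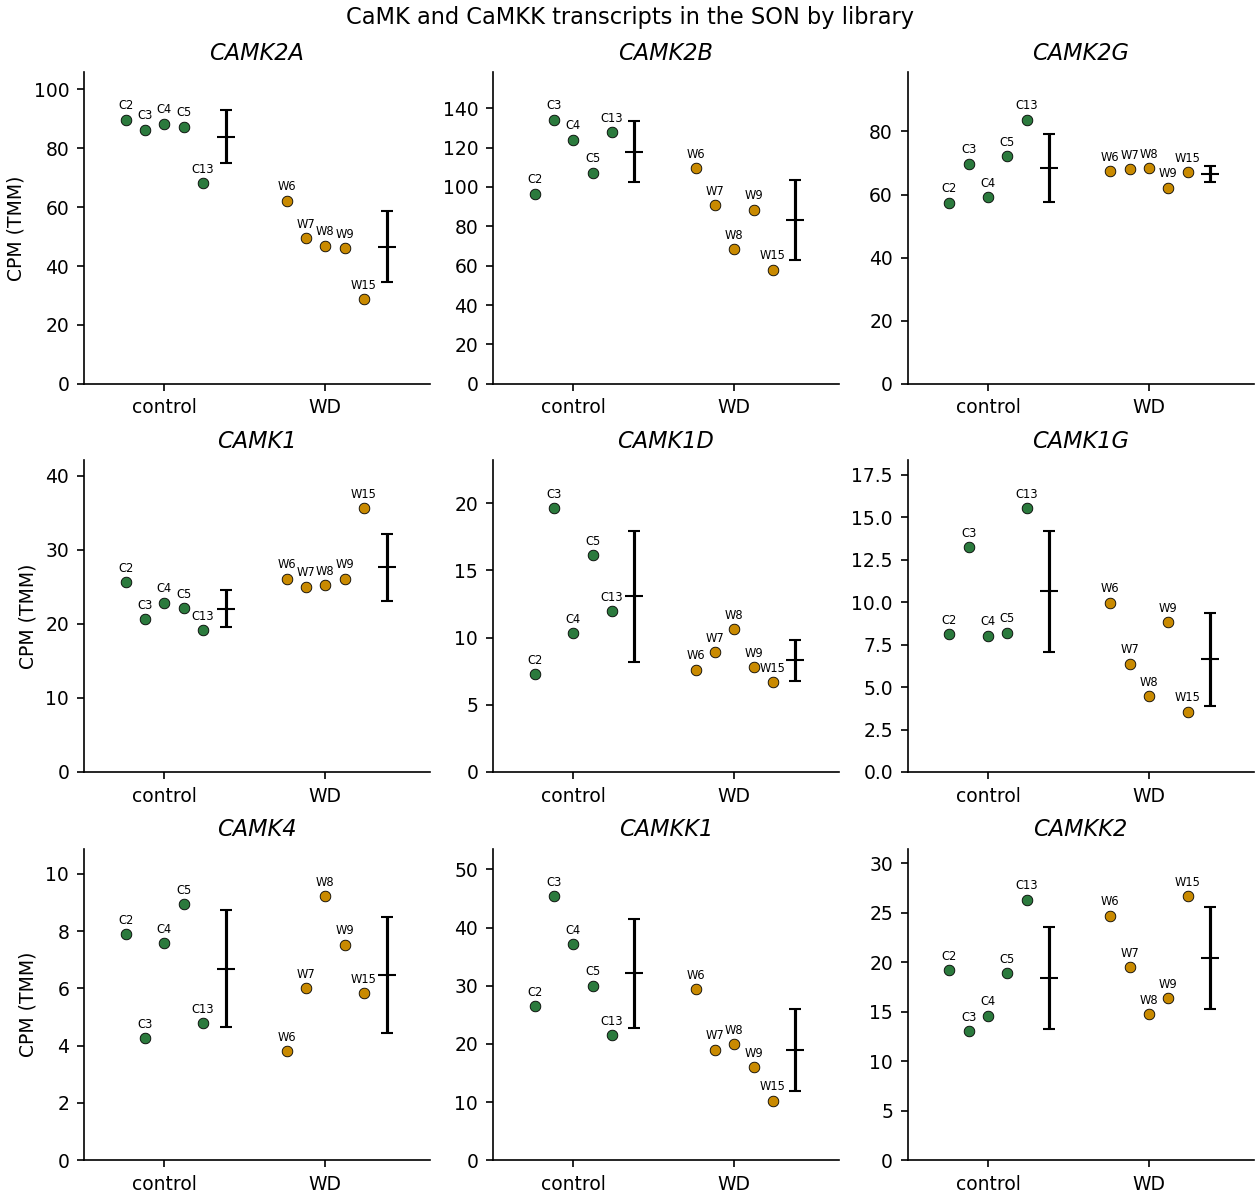
Level of each of the 9 kinase transcripts in CPM (y axis, from 0) in every control (green) and WD (yellow) library, with C and W standing for CON and WD in the point labels and bars for the mean and SD (n = 5). Only the CAMK2A panel has all 5 WD points, between 28.8 and 62.2 CPM, below all 5 control points, between 68.2 and 89.7 CPM.

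CAMK2A (ENSCDRG00005002212) encodes the alpha subunit of CaMKII. In the control camels its level was 89.7 CPM in CON2, 86.3 in CON3, 88.4 in CON4, 87.2 in CON5 and 68.2 in CON13. In the WD camels it was 62.2 CPM in WD6, 49.4 in WD7, 46.9 in WD8, 46.0 in WD9 and 28.8 in WD15. The 2 groups did not overlap, the controls other than CON13 lay within a few CPM of each other, and the gap between the groups was set by CON13 and WD6, the shallowest 2 libraries by that measure. CON13 held 57 CAMK2A counts and WD6 held 131. The lowest CAMK2A library of each group, CON13 and WD15, had a fragment size under 300 bp, and no other library did. The mean was 83.9 ± 8.92 CPM (SD, n = 5) in control and 46.6 ± 11.9 CPM (SD, n = 5) in WD.

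The CAMK2A log2 fold change was -0.87 (SE 0.19, 95% confidence interval -1.27 to -0.47), a WD level of 0.548 times control. The unadjusted edgeR p was 0.00025 and the adjusted p was 0.0501, just above the threshold, and by p the gene ranked 73 among the 14432 tested, directly after the 72 genes that passed. DESeq2's Wald test on the same counts gave a log2 fold change of -0.87 with an adjusted p of 0.00059. Over 21 alternative fits the log2 fold change stayed between -1.05 and -0.73, and the adjusted p was at most 0.05 in 9 of them and ranged from 0.00059 to 0.99998, the last of these with libraries scaled by their totals alone. The side of the threshold on which CAMK2A fell depended on the fit, while its direction did not.

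The difference was present at both ranges of depth. Among the 5 libraries with the most counts outside the dominant IDs, the CAMK2A mean was 87.8 CPM in the 2 controls and 47.4 CPM in the 3 WD libraries. Among the other 5 it was 81.4 CPM in 3 controls and 45.5 CPM in 2 WD libraries. With the depth range as a covariate the log2 fold change was -0.90 with an edgeR adjusted p of 0.0106, a fit in which 1.55% of all tested genes passed. With CON13 and WD6 both left out, a choice made after the data had been seen, it was -1.05 with an edgeR adjusted p of 0.0102, a fit in which 0.59% passed. With a fragment size under 300 bp as a covariate, the CAMK2A log2 fold change was -0.87 (edgeR adjusted p = 0.0190). In that fit 78 of 14432 genes passed.

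**Figure D2:**
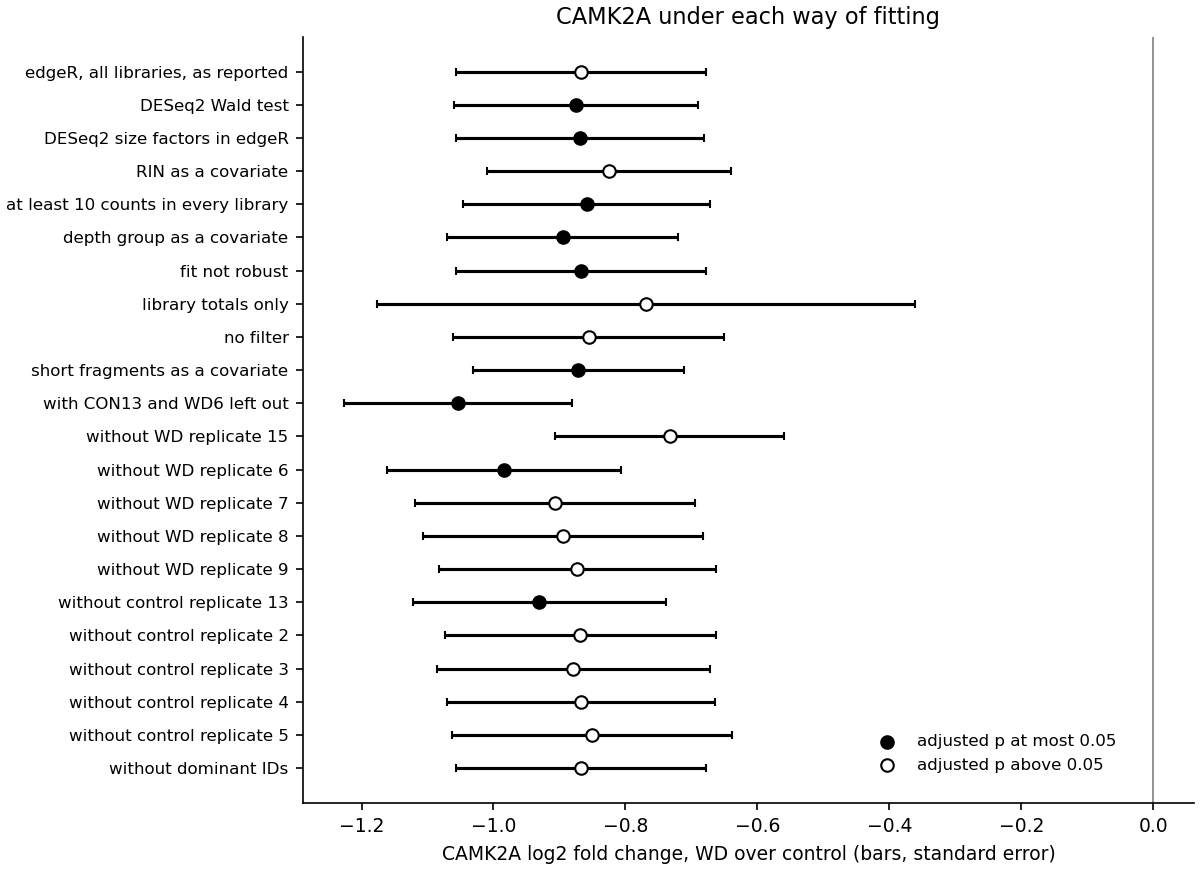
CAMK2A log2 fold change (x axis, WD over control) in the fit reported and in 21 alternative fits (one per line), with bars for the standard error and filled points where the adjusted p was at most 0.05. Every estimate lies between -1.05 and -0.73, and 9 of the 21 alternatives are filled.

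CAMK2B (ENSCDRG00005003656) encodes the beta subunit, which anchors the holoenzyme to actin. Its control levels were 96.5 CPM in CON2, 134 in CON3, 124 in CON4, 107 in CON5 and 128 in CON13. Its WD levels were 110 CPM in WD6, 90.8 in WD7, 68.4 in WD8, 88.4 in WD9 and 57.9 in WD15. The groups overlapped through WD6, and the other 4 WD libraries were below the lowest control. The mean was 118 ± 15.6 CPM in control and 83.0 ± 20.3 CPM in WD (SD, n = 5 each). The log2 fold change was -0.51 (SE 0.19, 95% confidence interval -0.90 to -0.12) with an edgeR adjusted p of 0.367, and it passed the threshold in none of the 21 alternative fits.

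CAMK2G (ENSCDRG00005017107), the gamma subunit, had levels of 57.4 CPM in CON2, 69.8 in CON3, 59.2 in CON4, 72.2 in CON5 and 83.7 in CON13. In WD its levels were 67.4 CPM in WD6, 68.1 in WD7, 68.4 in WD8, 62.1 in WD9 and 67.1 in WD15, all of them inside the control range. The WD libraries spread less (66.6 ± 2.56 CPM, SD, n = 5) than the controls (68.5 ± 10.7 CPM, SD, n = 5). The log2 fold change was -0.02 (95% confidence interval -0.36 to 0.31, edgeR adjusted p = 0.977). Its direction was not fixed, since it became 0.15 when libraries were scaled by their totals alone and 0.019 without CON13 and WD6.

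**Figure D3:**
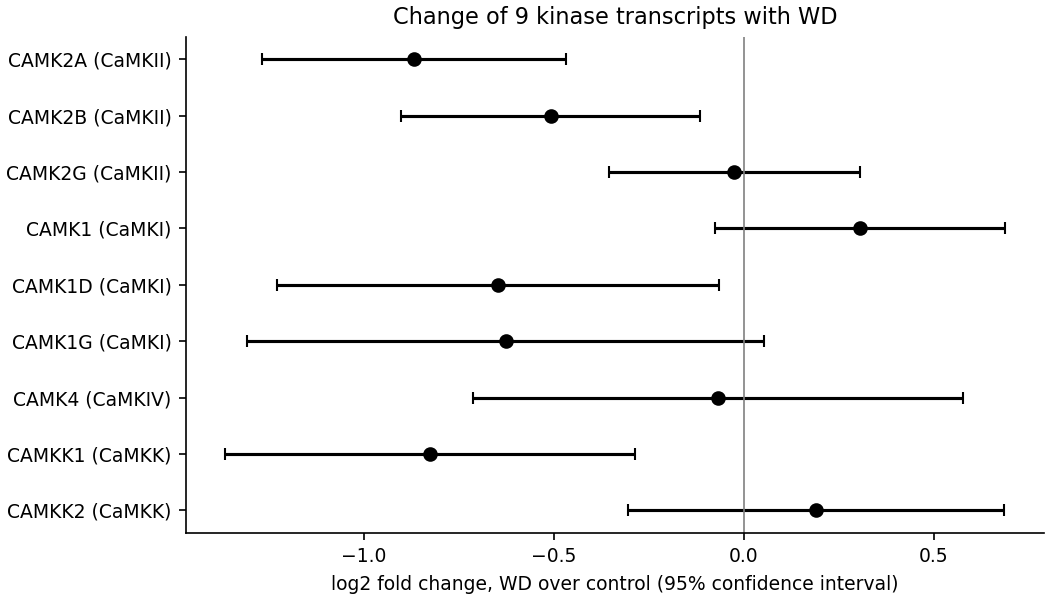
Log2 fold change of WD over control (x axis) for the 9 kinase transcripts, with bars for the 95% confidence interval of the edgeR fit (n = 5 per group). The unadjusted intervals of CAMK2A, CAMK2B, CAMK1D and CAMKK1 lie below 0 and those of the other 5 members cross it, and no member had an adjusted p of at most 0.05 in this fit.

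Ratios of 2 transcripts within a library do not depend on how the libraries are scaled, so they were used to ask whether the CaMKII subunits differed from each other between the groups. 4 ratios were tested by a two-sided exact permutation test on log2 ratios over all assignments of the 10 libraries to groups of 5, in which the smallest possible p is 0.00794. The CAMK2A/CAMK2G ratio was 1.56 in CON2, 1.24 in CON3, 1.49 in CON4, 1.21 in CON5 and 0.816 in CON13. It was 0.923 in WD6, 0.725 in WD7, 0.686 in WD8, 0.740 in WD9 and 0.429 in WD15. Only CON13 among the controls lay within the WD range. The WD ratio was 0.552 times the control ratio on average (log2 difference -0.86, exact permutation p = 0.0159, adjusted over the 4 ratios 0.0635).

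The CAMK2B/CAMK2G ratio ranged from 1.49 to 2.09 in control and from 0.864 to 1.62 in WD. Its log2 difference was -0.50 (exact permutation p = 0.0317, adjusted 0.0635), and 4 of the 5 WD libraries were below the lowest control. The CAMK2A/CAMK2B ratio ranged from 0.535 to 0.929 in control and from 0.497 to 0.686 in WD, with a log2 difference of -0.35 (exact permutation p = 0.0714, adjusted 0.0952). This test did not separate alpha from beta, and no ratio reached an adjusted p of 0.05 with all 10 libraries. Without CON13, the library with 57 CAMK2A counts, all 4 did, with log2 differences of -1.01 for CAMK2A/CAMK2G, -0.55 for CAMK2B/CAMK2G and -0.46 for CAMK2A/CAMK2B. The adjusted exact permutation p was then 0.0317 for CAMK2A/CAMK2G, 0.0397 for CAMK2B/CAMK2G and 0.0317 for CAMK2A/CAMK2B. Without WD6, the first 2 of these ratios had adjusted exact permutation p-values of 0.0317. With any other single library left out no ratio passed, and the adjusted exact permutation p then lay between 0.0635 and 0.0952 for CAMK2A/CAMK2G, 0.0635 and 0.138 for CAMK2B/CAMK2G, 0.0635 and 0.180 for CAMK2A/CAMK2B, and 0.0873 and 0.214 for CAMKK1/CAMKK2.

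**Figure D4:**
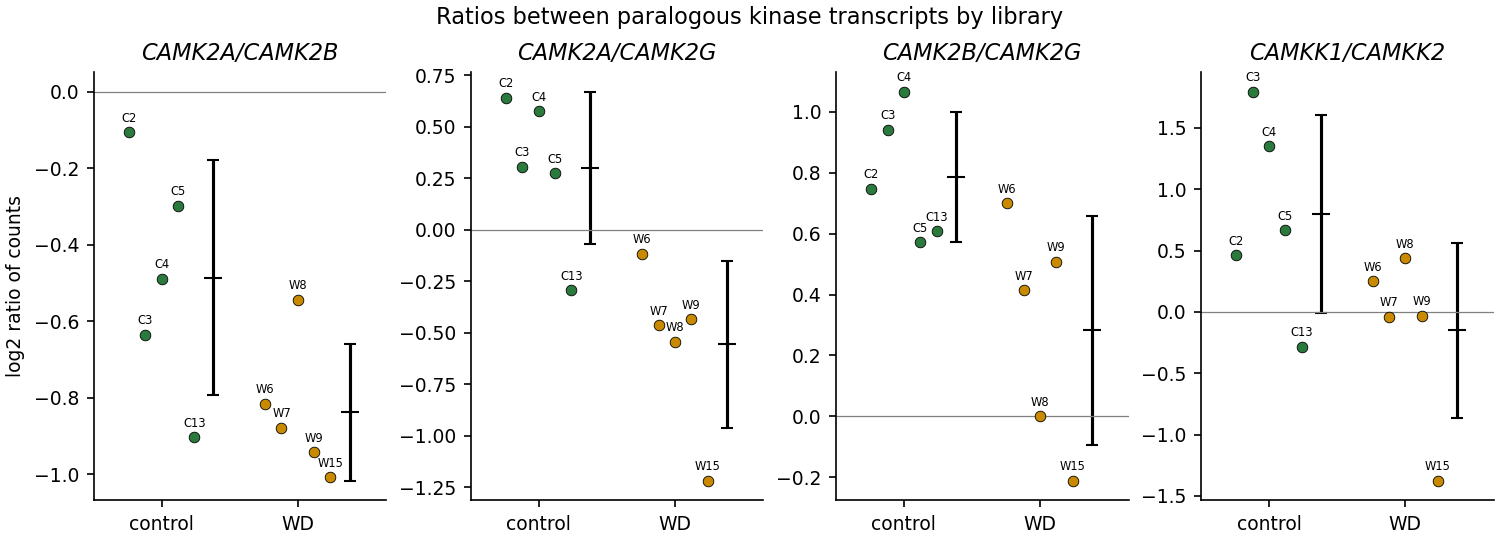
Log2 ratio of counts (y axis, a separate scale for each panel) for 4 pairs of kinase transcripts in every control (green, C) and WD (yellow, W) library, with bars for the mean and SD (n = 5). CON13 is the lowest control for CAMK2A/CAMK2B, CAMK2A/CAMK2G and CAMKK1/CAMKK2, and WD15 is the lowest library for all 4 ratios.

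The counts of the 3 CaMKII transcripts added up to between 244 and 290 CPM in the control libraries (270 ± 17.5 CPM, SD, n = 5) and to between 154 and 239 CPM in the WD libraries (196 ± 31.4 CPM, SD, n = 5). CAMK2A made up 31.2 ± 4.59% of these counts in control and 23.5 ± 2.89% in WD, and CAMK2G 25.3 ± 3.21% in control and 34.7 ± 5.96% in WD. The CAMK2B share was 43.5 ± 3.27% and 41.9 ± 4.11%. Shares depend on transcript length and cannot be read as proportions of molecules. In exact permutation tests p was 0.0238 for the CAMK2A share, 0.0159 for the CAMK2G share and 0.524 for the CAMK2B share (adjusted over the 3 shares 0.0357, 0.0357 and 0.524), and without WD15 the adjusted exact permutation p was 0.0595 for both CAMK2A and CAMK2G. The share tests were not planned, unlike those of the ratios, and they re-use the same counts. The shares add up to the whole and so are not independent of each other, CAMK2D is not in the sum, and the level of CAMK2G itself was 68.5 CPM in control and 66.6 CPM in WD. For CON13 the CAMK2A share of 24.4% had a 95% Wilson interval of 19.3 to 30.2%, which covers counting error only and reaches the share of CON3, 29.7%.

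**Figure D5:**
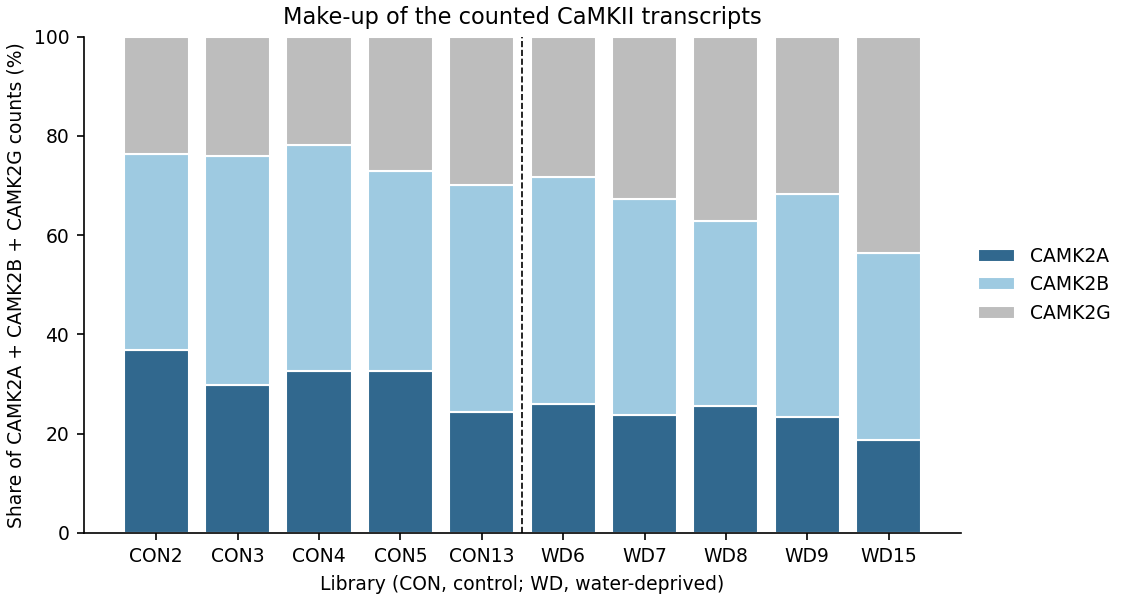
Share (y axis, %) of CAMK2A, CAMK2B and CAMK2G in the summed counts of the 3 genes in each library (x axis), controls left and WD right of the dashed line. The CAMK2A share runs from 24.4 to 36.8% in the controls and from 18.7 to 25.99% in WD, and the CAMK2G share from 21.8 to 29.9% and from 28.2 to 43.6%.

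None of the CaMKI genes passed the test, and their differences had both signs. CAMK1 (ENSCDRG00005011303), the founding CaMKI gene, had 22.1 ± 2.45 CPM in control (range 19.1 to 25.6) and 27.6 ± 4.51 CPM in WD (range 25.0 to 35.6). Its log2 fold change was 0.31 (95% confidence interval -0.08 to 0.69, edgeR adjusted p = 0.650). WD15 was the highest library and the other 4 WD libraries lay between 25.0 and 26.1 CPM, close to CON2 at 25.6 CPM.

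CAMK1D (ENSCDRG00005019403), which encodes CaMKI delta, had 13.1 ± 4.87 CPM in control and 8.31 ± 1.51 CPM in WD. The control libraries ranged from 7.26 CPM in CON2 to 19.6 CPM in CON3, and the WD libraries from 6.67 to 10.6 CPM. The log2 fold change was -0.65 (SE 0.28, edgeR adjusted p = 0.474). CAMK1G (ENSCDRG00005007186), which encodes the brain-enriched CaMKI gamma, had 10.6 ± 3.54 CPM in control and 6.63 ± 2.75 CPM in WD, with a log2 fold change of -0.63 (SE 0.32, edgeR adjusted p = 0.589). Its 2 highest libraries were CON13 with 15.5 CPM, which rests on 13 counts, and CON3 with 13.2 CPM.

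CAMK4 (ENSCDRG00005007383), which encodes the nuclear kinase CaMKIV, had the fewest counts of the members, 416 over the 10 libraries. Its level was 6.69 ± 2.05 CPM in control and 6.47 ± 2.03 CPM in WD, with ranges of 4.26 to 8.93 and 3.80 to 9.22 CPM. The log2 fold change was -0.07 (95% confidence interval -0.71 to 0.58, edgeR adjusted p = 0.970), and it turned to 0.14 when libraries were scaled by their totals alone.

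The 2 CaMKK genes encode the upstream kinases, and neither passed the test with all 10 libraries. CAMKK1 (ENSCDRG00005014884) had levels of 26.5 CPM in CON2, 45.4 in CON3, 37.2 in CON4, 30.0 in CON5 and 21.5 in CON13. In WD they were 29.4 CPM in WD6, 19.0 in WD7, 20.0 in WD8, 16.0 in WD9 and 10.2 in WD15. All WD libraries but WD6 were below the lowest control, and that control, CON13, rests on 18 counts.

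The CAMKK1 mean was 32.1 ± 9.37 CPM in control and 18.9 ± 6.998 CPM in WD (SD, n = 5 each), and the log2 fold change was -0.83 (SE 0.26, 95% confidence interval -1.36 to -0.29, edgeR unadjusted p = 0.0048, adjusted 0.232). Without CON13 and WD6, a choice made after the data had been seen, the log2 fold change was -1.10 with an edgeR adjusted p of 0.0470, and this was the only one of 21 alternative fits in which CAMKK1 passed. Among the 5 libraries with the most counts outside the dominant IDs, the means were 33.6 CPM in control and 18.3 CPM in WD, and among the other 5 they were 31.1 and 19.8 CPM.

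CAMKK2 (ENSCDRG00005016978) had 18.4 ± 5.17 CPM in control and 20.4 ± 5.17 CPM in WD, with ranges of 13.01 to 26.3 and 14.7 to 26.7 CPM. Its log2 fold change was 0.19 (95% confidence interval -0.30 to 0.68, edgeR adjusted p = 0.866). The CAMKK1/CAMKK2 ratio ranged from 0.822 to 3.47 in control and from 0.385 to 1.35 in WD. Its log2 difference was -0.95, beside SDs between libraries of 0.81 in control and 0.71 in WD, and it did not pass the exact permutation test with all 10 libraries (p = 0.103, adjusted over the 4 ratios 0.103). Without CON13 it was -1.22 with an adjusted exact permutation p of 0.0317.

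The members were compared with CAMK2A library by library, as a description over 10 libraries that share their scaling and their 2 groups. On log2 CPM, CAMKK1 had a Pearson r of 0.91 with CAMK2A (Spearman 0.81) and CAMK2B an r of 0.85 (Spearman 0.67). Within the groups, each of only 5 libraries, CAMKK1 had an r of 0.63 in control and 0.97 in WD, whereas CAMK2B had an r of -0.44 in control and 0.90 in WD, a difference that was not tested. After each group mean was subtracted the r was 0.86 for CAMKK1 (Spearman 0.60) and 0.65 for CAMK2B (Spearman 0.35). WD15 was the lowest library of the WD group for all 3 genes while WD6 was the highest. Without WD15 and WD9, the libraries farthest from the CAMK2A median, the uncentred r was 0.77 for CAMKK1 and 0.69 for CAMK2B. Over all 10 libraries the r was 0.69 for CAMK1G, 0.57 for CAMK1D, 0.02 for CAMK4, -0.08 for CAMK2G, -0.38 for CAMKK2 and -0.76 for CAMK1, the most opposed member. For CAMK1 the r was 0.78 in control and -0.87 in WD. Such values within a group lean on single libraries. Control CAMK2A was 86.3 to 89.7 CPM in all libraries but CON13, at 68.2 CPM. WD CAMK1 was 25.0 to 26.1 CPM in all libraries but WD15, at 35.6 CPM. A difference between the groups in how the genes vary together cannot be read from them.

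Among 2266 other tested genes with a symbol in the complete tables, the 5 with the highest r to CAMK2A were CAMTA1 (0.93), a calmodulin-binding transcription activator, TIMP2 (0.92), an inhibitor of matrix metalloproteinases, THRA (0.91), a thyroid hormone receptor, CAMKK1 (0.91) and PCSK2 (0.91), a prohormone convertase. PCSK2 had 50.3 CPM in control and 17.8 CPM in WD (log2 fold change -1.53, edgeR adjusted p = 0.0144), and CAMTA1 had 69.6 and 55.0 CPM (log2 fold change -0.35, edgeR adjusted p = 0.551). After subtraction of the group means the 5 highest were CYP46A1 (0.93), ZFP69 (0.91), CAMTA1 (0.90), NUAK1 (0.90) and FEZF1 (0.89), so that only CAMTA1 was on both lists. ZFP69 and FEZF1 were at 3.26 CPM or below in both group means. CAMKK1 ranked 10 on that list.

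Calmodulin is the calcium sensor of all these kinases, and neither of the 2 calmodulin genes reported here passed the test. CALM2 had 191 ± 85.4 CPM in control and 173 ± 74.7 CPM in WD (log2 fold change -0.14, edgeR adjusted p = 0.938), and CALM3 had 338 ± 42.9 and 293 ± 72.4 CPM (-0.21, adjusted p = 0.805). The log2 fold change of CALM2 changed sign under other fits, up to 0.11 with RNA integrity as a covariate. Counts of genes with similar coding sequences are uncertain where reads can be assigned to either.

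Of 16 other CaMK-group or calmodulin-regulated kinases, 15 were tested and none passed, with 9 higher and 6 lower and a median log2 fold change of 0.04. The smallest p was that of DAPK1, the death-associated protein kinase, with 134 ± 21.3 CPM in control and 189 ± 30.9 CPM in WD (log2 fold change 0.49, edgeR adjusted p = 0.338). DAPK1 passed in 1 alternative, with RNA integrity as a covariate (log2 fold change 0.62, edgeR adjusted p = 0.0443). The next was DCLK3, a doublecortin-like kinase, with 2.94 ± 1.54 and 1.57 ± 0.663 CPM (-1.03, edgeR adjusted p = 0.565).

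Of 13 transcription factors and histone deacetylases that are known nuclear targets of CaMKs or calmodulin, 1 passed the test, and the median log2 fold change was 0.17. This was CREM, a cAMP-responsive factor of the CREB family, which rose from 5.66 ± 2.63 to 21.4 ± 4.31 CPM (log2 fold change 1.77, SE 0.27, edgeR adjusted p = 0.0031). Its WD libraries, from 15.1 to 25.7 CPM, were all above the highest control, 8.11 CPM. CREB1, the classical CaMKIV substrate, had 8.46 ± 2.32 and 10.8 ± 1.72 CPM (log2 fold change 0.30, edgeR adjusted p = 0.762), and ATF1 had 5.90 ± 1.41 and 6.72 ± 2.99 CPM (0.17, adjusted p = 0.930). MEF2C, a factor released from histone deacetylases by CaMK signalling, had 29.4 ± 6.33 and 41.5 ± 11.9 CPM (0.49, adjusted p = 0.492).

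None of the 8 genes of the AMPK arm downstream of CaMKK2 passed, with a median log2 fold change of -0.10. The catalytic subunits PRKAA1 and PRKAA2 had log2 fold changes of 0.28 (15.4 ± 4.11 to 18.3 ± 3.70 CPM, edgeR adjusted p = 0.775) and -0.17 (19.4 ± 5.68 to 16.6 ± 7.33 CPM, edgeR adjusted p = 0.924), and the second changed sign to 0.10 under scaling by totals alone. The regulatory subunit PRKAG2 had 27.9 ± 12.6 and 37.8 ± 5.91 CPM (log2 fold change 0.36, edgeR adjusted p = 0.728).

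Among 10 other enzymes that calmodulin activates, 9 were tested and none passed, with 3 higher and 6 lower. ADCY8, a calcium-stimulated adenylyl cyclase, had 33.5 ± 6.26 CPM in control and 55.7 ± 6.52 CPM in WD, with all WD libraries (49.5 to 65.2 CPM) above all controls (28.0 to 42.0 CPM). Its log2 fold change was 0.71 (SE 0.18) with an edgeR adjusted p of 0.102, and it passed by DESeq2's Wald test (adjusted p = 0.0113) and in edgeR with depth as a covariate (adjusted p = 0.0294). PDE1B, a calmodulin-dependent phosphodiesterase, had 44.4 ± 14.4 and 26.3 ± 7.24 CPM (log2 fold change -0.72, edgeR adjusted p = 0.292).

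Markers of cell types were read beside these values. Neuroendocrine markers were present, with PDYN at 162 ± 46.4 CPM in control and 618 ± 127 CPM in WD (log2 fold change 1.93, edgeR adjusted p = 0.0003), SIM1 at 71.0 and 68.8 CPM (-0.04, edgeR adjusted p = 0.973), OTP at 39.5 and 25.7 CPM (-0.58, adjusted p = 0.454) and TRH at 20.7 and 15.9 CPM (-0.37, adjusted p = 0.820), while BSX and SIX6 did not pass the filter. Of these 4 tested markers PDYN passed, 3 had a lower mean in WD, and the median log2 fold change was -0.20. The vasopressin and oxytocin genes were not analysed here. CAMK2A is also abundant in cortical neurones, and 4 of the 5 telencephalic markers reported here did not pass the filter, with between 9 counts for EMX1 and 55 for EMX2 over all libraries and none at 0. The tested one, BCL11B, ranged from 1.20 to 4.49 CPM in control and from 1.04 to 10.4 CPM in WD. It was highest in WD6, which was also the highest WD library for CAMK2A, and lowest in WD15.

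All 5 microglial markers had a higher mean in WD and none passed the test, with a median log2 fold change of 0.69. Of the 14432 tested genes, 7490 had a log2 fold change above 0. Their summed level ranged from 178 to 292 CPM in control and from 211 to 657 CPM in WD, and the highest library was WD15, which was also the lowest for CAMK2A, CAMK2B, CAMKK1, CAMK1D and CAMK1G and the highest for CAMK1 and CAMKK2. Without WD15 the CAMK2A log2 fold change was -0.73 (edgeR adjusted p = 0.114). WD15 and CON13 were also the libraries with a fragment size under 300 bp. Of the 8 endothelial markers 7 had a higher mean in WD and none passed (sums of 253 to 446 CPM in control and 271 to 548 CPM in WD). Of the 5 oligodendrocyte markers (90.8 to 244 and 85.8 to 195 CPM), the 4 astrocyte markers (414 to 524 and 386 to 555 CPM) and the 2 markers of GABA neurones (20.1 to 33.7 and 11.9 to 33.6 CPM) none passed. The log2 fold change was below 0 for 4 oligodendrocyte, 3 astrocyte and 2 GABA markers, with medians of -0.08, -0.26 and -0.11. The part of cell composition in the kinase values was not tested.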

How the data were processed

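Ribosome-depleted stranded libraries were sequenced in pairs. The authors merged and trimmed reads with BBDuk, aligned them to Camdro2 with STAR and counted read pairs per gene with featureCounts, per the labels and the study's methods, and deposited these raw counts without pooling. The annotation release and strand setting are not given in the sources used here. The authors also deposited normalized values, a signal made by dividing each count by a DESeq2 size factor, which was used only to check the scaling.

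Libraries were compared on the counts with edgeR 4.0.16 (quasi-likelihood F test, robust, TMM, filterByExpr by group, Benjamini-Hochberg over 14432 genes, threshold 0.05) in R 4.3.3. The SE is the log2 fold change divided by the root of F. DESeq2 1.42.0 was an alternative. Ratios had 0.5 added to each count. Log2 CPM used a prior count of 0.5. Computation also used Python 3.11.15, numpy 2.4.6, scipy 1.17.1 and pandas 2.3.3. Scripts were tested on simulated data, where 50% of genes given a log2 change of 1 passed the edgeR threshold, and 91% of those given 2. A gene that did not pass is therefore not shown to be unchanged. RNA integrity (RIN) and fragment size per library came from the study's library sheet and served as covariates. Fragment size also served to name the libraries under 300 bp.

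Symbols came from the study's supplementary sheets, which pair 4207 IDs, 3038 of them in complete sheets that were the source for the gene lists. No coordinates are given. The named genes are all members, every list gene past the threshold, the 2 of smallest p per list of related kinases, targets and enzymes, the calmodulins reported, CREB1, CREM, ATF1 and the AMPK catalytic subunits, and the 5 genes most like CAMK2A. Cell type markers and CAMK2N1 were named outside this rule, after their values were seen. The members and lists were chosen with earlier results of these data known. Results on some listed genes are not reported here.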

Additional observations from a re-analysis of the deposited data

Results flagged for a closer look

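In 26 groups of 5 libraries (9 members and 4 ratios in 2 conditions), 4 had a single library far from the others by Dixon's criterion, where chance marks about 1 in 20 groups. The groups share libraries and the ratios re-use the counts of the members. They are not independent, so an excess over chance cannot be read from these numbers. CAMK2A in the control camels was lowest in CON13, at a log2 CPM of 6.09 from 57 counts, against 6.43 to 6.49 in the other 4. CAMK2G in WD was lowest in WD9, at 5.96, against 6.07 to 6.10. CAMK1 in WD was highest in WD15, at 5.16, against 4.65 to 4.71. The log2 CAMKK1/CAMKK2 ratio in WD was lowest in WD15, at -1.38, against -0.04 to 0.44.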

How the results depend on the processing

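No paired analysis was possible because the groups share no replicate numbers. Counts of all genes past the threshold moved from 72 (39 higher, 33 lower) to 209 by DESeq2's Wald test (105, 104), 224 with depth as a covariate (122, 102) and 10 with library totals only (7, 3), a scaling that moved the median log2 fold change of all genes to 0.16, and 70 were higher with RNA integrity as a covariate. Leaving out 1 library gave 40 to 102 genes (20 to 50 higher, 19 to 52 lower). CAMK2A was the 1 member past the threshold by the Wald test (log2 fold change -0.87), with DESeq2 size factors (-0.87), at least 10 counts in every library (-0.86), depth (-0.90) or short fragments (-0.87) as a covariate and a fit that was not robust (-0.87). With CON13 and WD6 left out there were 2 members, CAMK2A (-1.05) and CAMKK1. Leaving out 1 library gave 0 to 1 member and CAMK2A values of -0.98 to -0.73. Of the related list genes 1 passed, against 2 by the Wald test or with RNA integrity or depth as a covariate, and 0 with library totals only (where CREM had 1.88) or at least 10 counts in every library, a filter that removed CREM untested.

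Directions turned for CAMK2G (0.15 with totals only, 0.019 without CON13 and WD6), CAMK4 (0.14, totals only), CALM2 (0.11 with RNA integrity, 0.088 with totals only) and PRKAA2 (0.10, totals only). With 1 library left out the ranges crossing 0 were -0.10 to 0.036 for CAMK2G, -0.24 to 0.060 for CAMK4, -0.32 to 0.094 for CALM2 and -0.074 to 0.33 for ATF1. The log2 ratio differences then ranged from -0.46 to -0.26 (CAMK2A/CAMK2B), -1.01 to -0.69 (CAMK2A/CAMK2G), -0.61 to -0.38 (CAMK2B/CAMK2G) and -1.22 to -0.64 (CAMKK1/CAMKK2). Without CON13 and WD6 they passed for CAMK2A/CAMK2G (-1.12), CAMK2B/CAMK2G (-0.65) and CAMKK1/CAMKK2 (-1.32). The CAMK2G share and the CAMK2A/CAMK2G ratio had the same unadjusted exact permutation p of 0.0159, and the share passed when adjusted over 3 dependent shares while the ratio, adjusted over 4 ratios, did not. With 1 library left out, an alternative for the shares chosen after seeing the data, the CAMK2A and CAMK2G shares did not pass without WD15 (adjusted exact permutation p of 0.0595 for both). Of the 5 genes most like CAMK2A, 1 stayed after group means were subtracted. The causes were not tested.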

Other observations

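CAMK2N1, an inhibitor protein of CaMKII, was chosen after its values were seen, since it could be paired with an ID only through a table of which the rows with the smallest p-values were at hand. It had 8.43 ± 2.53 CPM in control and 5.14 ± 1.17 CPM in WD (SD, n = 5 each), with a log2 fold change of -0.72, an edgeR unadjusted p of 0.0291 and an adjusted p of 0.472, and the groups overlapped.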
